A study of Mus musculus with 50 samples.

Results

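Glycine N-methyltransferase (Gnmt) and 9 further enzymes that move methyl groups through liver metabolism were followed in 50 liver RNA libraries. The 10 genes, Gnmt, Mat1a, Ahcy, Bhmt, Bhmt2, Pemt, Sardh, Dmgdh, Cbs and Cth, were chosen by name as enzymes of the methionine cycle and the steps next to it. All 10 were among the 12185 genes of the deposited table, and all 10 passed the filter on low values that left 11436 genes for testing. The livers came from N2 offspring of a backcross, male by the deposited labels. B6.A4 × C57BL/6J F1 and B6.A6 × C57BL/6J F1 mice were mated, so that C57BL/6J and A/J alleles segregated on chromosomes 4 and 6 alone. Every other chromosome was C57BL/6J. The study's methods give an age of 5 weeks and an overnight fast, whereas the deposited labels give adult males of an F2 cross. All libraries share 1 label, and genotypes were not used here, so there is no treated or control group. The titles give each library a library number and an animal number, and the animal numbers run upwards with the library number, apart from library 9, whose number is below that of libraries 8 and 10, and start again at library 31. Library numbers 1 to 30 (n = 28) and 31 to 59 (n = 22) were treated as 2 library sets on this restart. None of the 10 genes lies on chromosomes 4 or 6.

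In the liver, methionine is turned into S-adenosylmethionine, the donor of nearly all cellular methyl groups, by the enzyme that Mat1a encodes. Gnmt passes the methyl group to glycine and makes sarcosine, a reaction known for disposing of surplus methyl groups and one that is inhibited by a methylated folate. Pemt uses the same donor to make phosphatidylcholine. Both reactions leave S-adenosylhomocysteine, which Ahcy splits into adenosine and homocysteine. Homocysteine is either methylated back to methionine, by Bhmt with betaine or by Bhmt2 with S-methylmethionine, or passed on towards cysteine by Cbs and then Cth. Dmgdh and Sardh, in mitochondria, strip the methyl groups from dimethylglycine and sarcosine and hand them to folate, which returns glycine. The pathway is thus a ring with Gnmt at the branch between use and disposal of methyl groups.

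The tissue was liver by its markers. Of 10 hepatocyte markers, 9 were in the table, with a summed value from 88110 to 135200 per library, and albumin was the highest of them. Summed values were 279.5 to 539.5 for 11 Kupffer cell and leukocyte markers, 247.1 to 372.9 for 10 endothelial markers, 140.3 to 353 for 10 stellate cell and fibroblast markers, 22.2 to 45.9 for 5 biliary markers and 94.7 to 301.8 for 5 red cell markers. Values are in normalised CPM, counts of a gene relative to a library size that the authors had scaled between libraries, and from 11965594 to 29976557 reads per library (median 13620584) lay on the genes of the table. In bulk liver, fewer cells of a type and less RNA per cell cannot be told apart.

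The start of Gnmt and the region between Bhmt2 and Dmgdh are shown because Gnmt is the gene to which the others are compared, and because Bhmt2 and Dmgdh lie head to head and, as given further on, varied together. In GRCm38, Gnmt (ENSMUSG00000002769) occupies chr17:46725664-46729168 on the minus strand. Bhmt (ENSMUSG00000074768, chr13:93616675-93637961) and Bhmt2 (ENSMUSG00000042118, chr13:93655720-93674302) follow each other on the minus strand of chromosome 13, and Dmgdh (ENSMUSG00000042102, chr13:93674433-93752833) starts on the plus strand right after the start of Bhmt2. The bases just before Gnmt, chr17:46729169-46729415, are written along its own strand, and the 130 bases between the starts of Bhmt2 and Dmgdh, chr13:93674303-93674432, along the plus strand. Both windows lie outside the annotated transcripts of these genes in GENCODE and RefSeq. Capitals mark a CCAAT box, here as ATTGG on the opposite strand, and a GC box, here as CCGCCC.
Gnmt, upstream: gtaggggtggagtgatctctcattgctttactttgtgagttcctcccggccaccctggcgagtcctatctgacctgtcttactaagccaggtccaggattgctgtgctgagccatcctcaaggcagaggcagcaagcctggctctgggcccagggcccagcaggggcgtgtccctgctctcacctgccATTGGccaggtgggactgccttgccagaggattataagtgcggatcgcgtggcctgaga
Between Bhmt2 and Dmgdh: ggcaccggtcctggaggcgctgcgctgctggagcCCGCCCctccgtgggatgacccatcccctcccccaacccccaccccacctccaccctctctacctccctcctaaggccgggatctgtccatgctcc
The second window has a GC content of 70.8%. Promoter windows from RefSeq (GRCm38.p6) were found for 8 of the 10 genes, not for Mat1a and Cth, and 4 motifs were searched on both strands in the 250 bases before each start. CCAAT stood before Gnmt, Ahcy, Pemt, Bhmt and Cbs and in 33.8% of all 32851 promoters. For Pemt, with RefSeq starts at chr11:60040188 and chr11:60037005, it stood before the former alone. The GC box GGGCGG stood before Ahcy, Bhmt2, Dmgdh and Cbs and in 32.7% of promoters, the 1 in the shared window being counted for both Bhmt2 and Dmgdh. The E-box CACGTG was found before Cbs, against 6.02% of promoters. TATAAA was found before none of the 8, against 12.4% of promoters. None of the 4 motifs contains another, and a match describes the window only.

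Among the genes that supply and spend the methyl donor, Mat1a was the highest, at 4354 in the lowest library, 7357 in the median and 11319 in the highest (7317 ± 1591 normalised CPM, SD, n = 50). Gnmt ranged from 991 through a median of 1440 to 2154 (1471 ± 248.1). Ahcy, which clears the product that inhibits methyltransferases, ran from 2056 through 2814 to 3965 (2843 ± 345.8). Pemt was lower and narrow, from 115 through 143 to 218.1 (146 ± 18.2). Library 9 was the lowest for both Gnmt and Ahcy, and library 22 the highest for both.

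Bhmt was the most variable of the 10. It ran from 1956 through a median of 6436 to 13659 (6654 ± 2704), a 6.98-fold range, and the next widest was 2.62-fold, for Cth. Its SD was 40.6% of its mean (the coefficient of variation). Among the 200 genes closest to it in mean value the median was 14.8%, and 96% of them lay lower. Bhmt2 ran from 160 through 223 to 293 (223 ± 34.2). Library 59 was the highest for Bhmt, Bhmt2 and Dmgdh and the lowest for Pemt.

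Dmgdh, which takes up the product of Bhmt, ran from 290 through 414 to 630 (414 ± 70.06). Sardh, which takes up the product of Gnmt, had the smallest relative spread, from 627 through 828 to 1015 (829 ± 92.5, coefficient of variation 11.2%). In the exit towards cysteine, Cbs ran from 296.4 through 375 to 563 (384 ± 48.5) and Cth from 418 through 684 to 1095 (697 ± 172.7). The coefficient of variation of Cth, 24.8%, was the second largest after Bhmt and above that of 84.5% of the nearest 200 genes. For Gnmt it was 16.9%, above 63% of them. Every gene rested on at least 1447 reads in every library, and counting error made up from 0.00617% (Bhmt) to 2.99% (Pemt) of the variance between libraries.

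**Figure D1:**
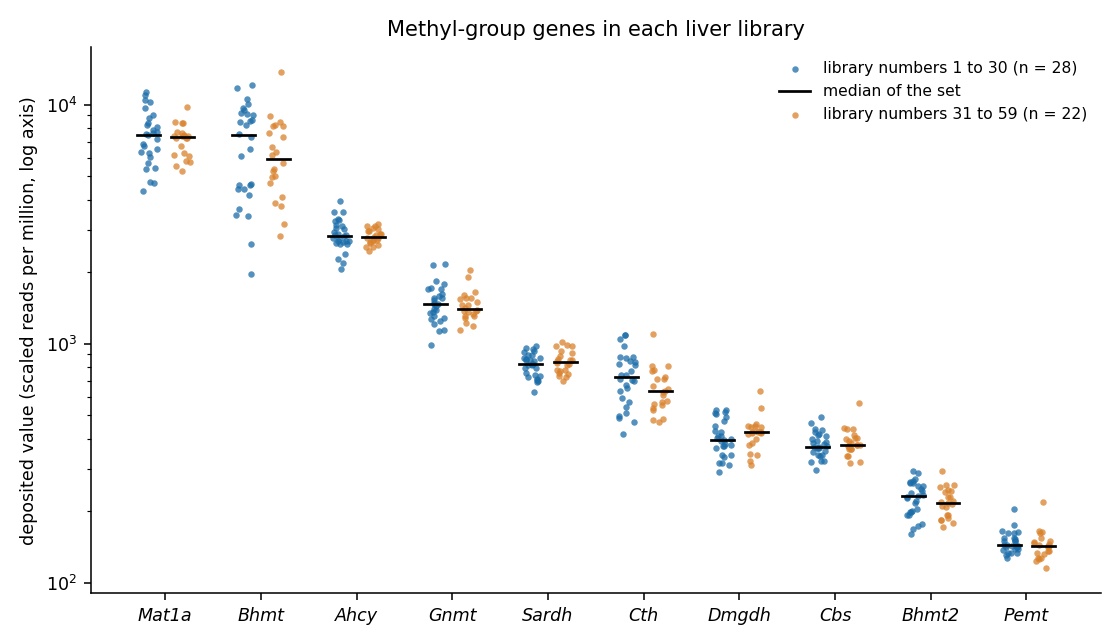
Deposited values (normalised CPM, log axis) of the 10 genes, with 1 point per library, coloured by library set, and a line at each set's median. Bhmt spreads from 1956 to 13659, and the 2 sets overlap for every gene.

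Levels of different genes are comparable only per length. Per kb of annotated exon, mean levels ran from 2110 for Mat1a through 1220 for Gnmt, 1156 for Bhmt and 1014 for Ahcy to 249.8 for Cth, 152.6 for Sardh, 121.2 for Dmgdh, 90.3 for Bhmt2, 69.5 for Pemt and 51.2 for Cbs. Mat1a exceeded Gnmt in 50 of 50 libraries. Gnmt exceeded Bhmt in 30 of 50 and Bhmt exceeded Ahcy in 25 of 50, so Bhmt does not differ from Gnmt or Ahcy beyond its spread, whereas Gnmt exceeded Ahcy in 46 of 50. The next neighbours kept their order in at least 45 of 50 libraries. Per kb of the longest protein-coding transcript, a length chosen after seeing the data because a retained-intron transcript lengthens Bhmt, Bhmt stood first at 2672, ahead of Mat1a in 34 of 50 libraries, followed by Gnmt at 1421 and Ahcy at 1118. Pemt then stood above Dmgdh, at 145.8 against 138.3, in 33 of 50 libraries.

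The question of whether the members differed between the library sets was put first, since the sets are the only split that the titles give. Gnmt ran from 991 through 1466 to 2154 in libraries 1 to 30 and from 1138 through 1395 to 2038 in libraries 31 to 59. Cth ran from 418 through 725 to 1090 and from 472 through 631 to 1095. The sets overlapped for every member, and the largest differences were -0.15 for Cth (standard error 0.096) and -0.09 for Bhmt (standard error 0.18) on the log2(value + 0.5) scale, the second set minus the first. By limma with Benjamini-Hochberg adjustment, 0 of 10 members passed an adjusted p of 0.05, and 0 of 10 had an unadjusted p under 0.05. The smallest adjusted p was 0.287, for Cth. Of all genes tested 13.5% passed, 7.07% higher and 6.42% lower in the second set, and edgeR's quasi-likelihood test on the recovered reads likewise called 0 members (1648 genes). With plain CPM in place of the authors' scaling, 410 genes were higher and 894 lower, against 808 and 734. The p-values measure the spread between these libraries, and a p that misses the threshold does not show that the sets were alike.

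The animal number was the other label that differs between libraries and its meaning is not given in the sources used here. Per 100 animal numbers, 5 of the 10 members rose and 0 fell (limma, adjusted p under 0.05), where 14.2% of all genes tested changed, 7.49% rising and 6.73% falling. Bhmt rose most, by 0.73 on the log2 scale per 100 numbers (standard error 0.14, adjusted p = 0.000513). Mat1a rose by 0.37 (standard error 0.07, adjusted p = 0.000528), Bhmt2 by 0.26 (standard error 0.051, adjusted p = 0.000684) and Ahcy by 0.17 (standard error 0.044, adjusted p = 0.0072). These are the enzymes that make the methyl donor, clear its spent form and return homocysteine to methionine. Cth rose by 0.26 (standard error 0.09, adjusted p = 0.0429), a call that was lost when any 1 of 16 libraries was left out, and with edgeR (adjusted p = 0.0625).

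Gnmt itself did not pass, with 0.11 per 100 numbers (standard error 0.064, adjusted p = 0.23), nor did Dmgdh (0.16, adjusted p = 0.0803), Sardh (0.10, adjusted p = 0.138), Pemt (-0.06, adjusted p = 0.457) or Cbs (-0.09, adjusted p = 0.236). Over the 50 libraries, Pearson r with animal number was 0.590 for Bhmt (permutation p = 2e-05, Spearman rho = 0.667, permutation p = 1e-05) and 0.595 for Mat1a (permutation p = 3e-05, rho = 0.616, permutation p = 1e-05). For Gnmt r was 0.248 (permutation p = 0.0822, rho = 0.346, permutation p = 0.0146). The value 1e-05 is the smallest that 100000 permutations can give. Without the 2 libraries farthest from the median animal number, r was 0.613 for Bhmt, 0.578 for Mat1a and 0.224 for Gnmt. Within the library sets r was 0.645 and 0.516 for Bhmt and 0.599 and 0.649 for Mat1a, but 0.380 and 0.028 for Gnmt.

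Fitted within libraries 1 to 30 alone, Bhmt, Bhmt2, Mat1a, Ahcy and Dmgdh rose (adjusted p between 0.00591 and 0.0378, 1032 genes called). In libraries 31 to 59 alone, 0 members and 15 genes passed in limma, where Mat1a rose by 0.28 with adjusted p = 0.0981, and 3 members had an unadjusted p under 0.05. A score of 16 male-type minus 14 female-type liver genes fell with animal number (r = -0.453, permutation p = 0.00094, rho = -0.503, permutation p = 0.00026, r = -0.351 and -0.550 within the sets, and -0.459 without the 2 farthest libraries). With this score as a covariate, an alternative chosen after seeing the data, 415 genes passed, with 3 members among them, all of them rising, namely Bhmt (0.63, adjusted p = 0.0193), Bhmt2 (0.24, adjusted p = 0.0176) and Mat1a (0.22, adjusted p = 0.0454). Markers of other cells were counted too, beside 14.2% of all genes called, 7.49% rising and 6.73% falling. With animal number 5 of 10 stellate cell markers rose, and 4 of 5 red cell markers rose and 1 fell. Of the others, 2 of 10 endothelial markers rose, 1 of 10 Kupffer cell and leukocyte markers fell and 0 of 5 biliary markers were called. The part of these cells in the members' relation to animal number was not tested.

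**Figure D2:**
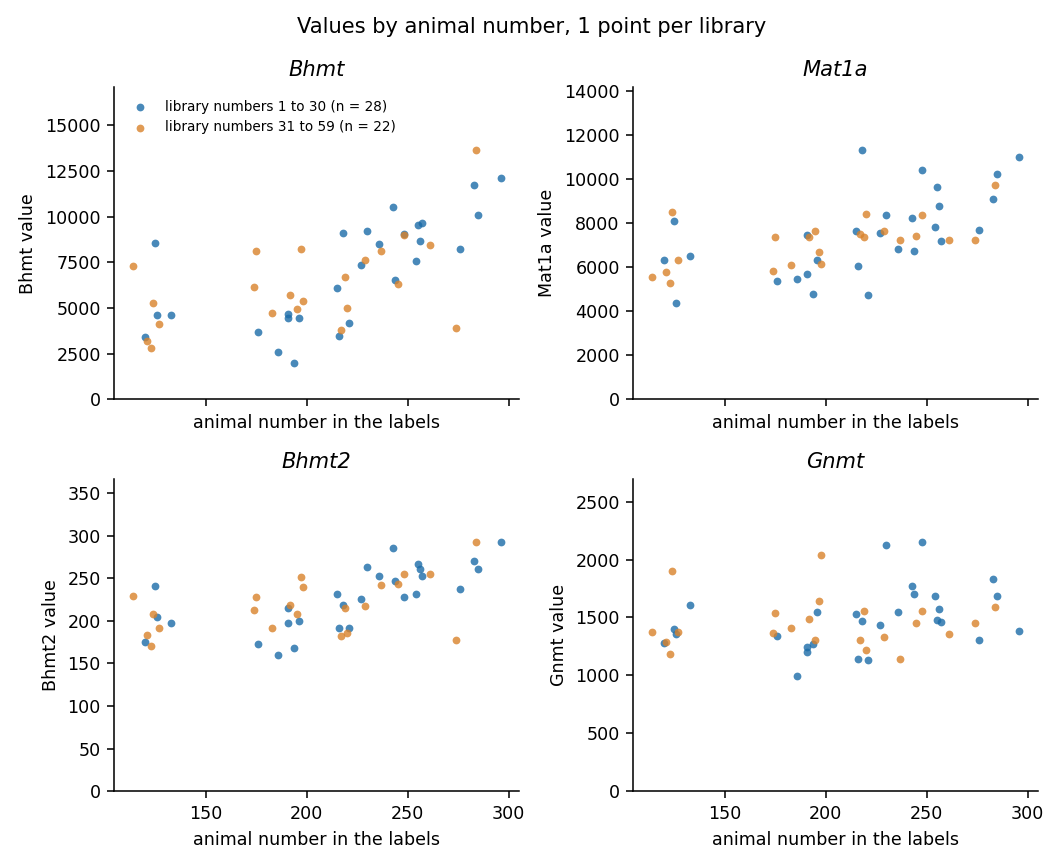
Values (normalised CPM, linear axes from 0) of Bhmt, Mat1a, Bhmt2 and Gnmt against the animal number in the labels, with 1 point per library, coloured by library set. Bhmt, Mat1a and Bhmt2 rise from left to right (r = 0.590, 0.595 and 0.593), while Gnmt scatters (r = 0.248).

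Gnmt was next set against every other gene over the 50 libraries, to see which members kept step with it. All 9 other members rose with Gnmt (limma of each gene on the log2 value of Gnmt, adjusted p under 0.05), where 25.4% of all genes tested were related to it, 12.8% rising and 12.7% falling. The closest was Cth, the last enzyme on the way to cysteine, with r = 0.715 (permutation p = 1e-05, rho = 0.718, permutation p = 1e-05, adjusted p = 1.55e-06). Ahcy followed with r = 0.664 (permutation p = 1e-05, rho = 0.625, permutation p = 1e-05, adjusted p = 3.76e-05). Sardh, which consumes the sarcosine that Gnmt makes, had r = 0.658 (permutation p = 1e-05, rho = 0.643, permutation p = 2e-05, adjusted p = 5.79e-05).

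The 2 homocysteine methyltransferases were next, Bhmt2 with r = 0.563 (permutation p = 2e-05, rho = 0.612, permutation p = 1e-05, adjusted p = 0.000588) and Bhmt with r = 0.545 (permutation p = 8e-05, rho = 0.601, permutation p = 2e-05, adjusted p = 0.000679). Cbs had r = 0.523 (permutation p = 0.00014, rho = 0.445, permutation p = 0.00137, adjusted p = 0.00208), Mat1a r = 0.483 (permutation p = 0.00036, rho = 0.508, permutation p = 0.00023, adjusted p = 0.00369) and Dmgdh r = 0.441 (permutation p = 0.00142, rho = 0.503, permutation p = 0.00026, adjusted p = 0.00961). Pemt, the other methyltransferase among the 10, was the loosest, with r = 0.372 (permutation p = 0.00849, adjusted p = 0.0386) but rho = 0.240 (permutation p = 0.0912). Its call rested on single libraries, since adjusted p was 0.192 without library 44 and 0.101 without library 18. It was also lost without libraries 9, 21 or 47 (adjusted p between 0.053 and 0.0654).

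Per 1 unit of Gnmt on the log2 scale, the rise was 1.07 on the log2 scale in Cth (standard error 0.15), 1.47 in Bhmt (standard error 0.32), 0.49 in Ahcy (standard error 0.083) and 0.45 in Sardh (standard error 0.079). Without the 2 libraries farthest from the median of Gnmt, r stayed between 0.428 and 0.654 for the 8 members other than Pemt, and was 0.315 for Pemt. Within libraries 1 to 30, r with Gnmt lay between 0.371 (Pemt) and 0.75 (Cth), and within libraries 31 to 59 between 0.208 (Dmgdh) and 0.658 (Cth). A test of the difference in slope between the sets called 0 of 11435 genes (limma interaction term), with 1210 genes at an unadjusted p under 0.05, and among the members Ahcy had the smallest unadjusted p (0.0277, adjusted p = 0.437, slopes 0.62 and 0.22).

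With the first 5 principal components of all genes as covariates, 351 genes remained related to Gnmt, 199 rising and 152 falling, and 4 members were among them: Cth (partial r = 0.720, adjusted p = 1.85e-05), Cbs, Sardh and Ahcy (partial r = 0.543, adjusted p = 0.0221). The slope on Gnmt went from 0.39 to 0.70 for Cbs and from 0.45 to 0.54 for Sardh, and from 1.47 to 0.88 for Bhmt and from 0.65 to 0.20 for Mat1a, which were no longer called. Dmgdh lost its call with its slope little moved (0.45 to 0.43). With plain CPM, 2264 genes rose and 732 fell with Gnmt, against 1458 and 1449 on the deposited scale, and the 9 members rose on both. Of the markers of other cell types, 2 of 10 stellate cell markers rose with Gnmt, 1 of 10 Kupffer cell and leukocyte markers fell, and 0 of the 10 endothelial, 5 biliary and 5 red cell markers were called by limma. The median slope on the log2 scale was 0.70 for the red cell markers (median r 0.273) and 0.22 for the stellate cell markers (median r 0.154), beside 0.49 for the 9 members, and the part of these cells in the members' relation to Gnmt was not tested. Of the 9 hepatocyte markers tested, 3 rose and 2 fell.

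**Figure D3:**
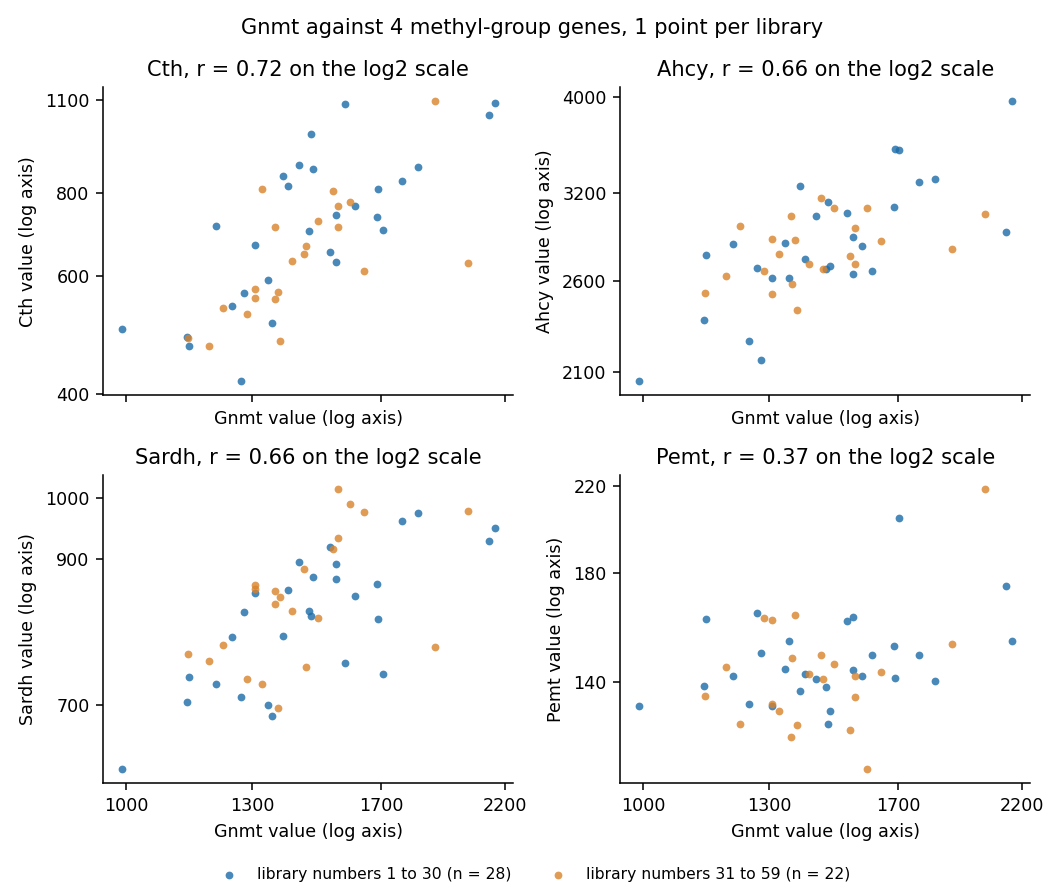
Cth, Ahcy, Sardh and Pemt against Gnmt (normalised CPM, log axes), with 1 point per library, coloured by library set. Cth, Ahcy and Sardh climb with Gnmt in both sets, whereas the Pemt panel (r = 0.372) leans on a few high libraries.

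The genes most like Gnmt were, in order of r over the 50 libraries, Gpt (0.833), Qdpr (0.828), Mdh1 (0.828), Ass1 (0.812) and Dcxr (0.807). Gpt encodes alanine aminotransferase, Qdpr the reductase that regenerates tetrahydrobiopterin, Mdh1 cytosolic malate dehydrogenase, Ass1 the urea cycle enzyme argininosuccinate synthase and Dcxr a xylulose reductase. The genes that ran most against Gnmt were Sh3bgrl2 (-0.740), Onecut2 (-0.723), a hepatic transcription factor, Vps13d (-0.713), Med12l (-0.693) and Mtmr1 (-0.689). All 10 kept their sign in both library sets. For the other members, the most alike genes were Dlst for Mat1a (0.898), the urea cycle gene Asl for Ahcy (0.808), the ribosomal protein gene Rpl7a for Pemt (0.821), the folate enzyme Aldh1l1 for Sardh (0.828), Etnppl for Cbs (0.740) and the pyrophosphatase gene Ppa1 for Cth (0.820). The pairs among Bhmt, Bhmt2 and Dmgdh are described next.

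Among the 45 pairs of members, 36 had a positive r and 27 were called, that is, with adjusted p under 0.05 in both fits of the pair. The share of all genes related to the regressor was 27.6% for Mat1a, 18.8% for Ahcy, 26.7% for Bhmt, 23.5% for Bhmt2, 36% for Pemt, 5.54% for Sardh, 5.68% for Dmgdh, 0.551% for Cbs and 26% for Cth. Every pair with a negative r held Pemt or Cbs. In the 28 pairs without Pemt and Cbs, a choice made after their values were seen, 25 were called. There r ran from 0.305 (Dmgdh with Cth) to 0.934, and its positive sign in all 28 follows from that choice. Pemt and Cbs were each called with Gnmt and with no other member. For Pemt the other r values ran from -0.287 (with Bhmt) to 0.210 (with Ahcy), although more genes of the table went with Pemt than with any other member. For Cbs they ran from -0.154 (with Dmgdh) to 0.371 (with Cth), although Cbs and Cth catalyse consecutive steps.

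Bhmt and Bhmt2 varied most closely, with r = 0.934 (permutation p = 1e-05, rho = 0.926, permutation p = 1e-05, adjusted p = 2.13e-17 in the fit on Bhmt) and r = 0.941 and 0.923 within the sets. Dmgdh went with Bhmt2 (r = 0.789, permutation p = 1e-05, rho = 0.765, permutation p = 1e-05) and with Bhmt (r = 0.756, permutation p = 1e-05, rho = 0.730, permutation p = 1e-05), so that the 3 neighbours on chromosome 13, 2 of them around the GC-rich window printed above, moved together in both sets (r between 0.718 and 0.941). The sizes differed: per 1 unit of Bhmt on the log2 scale, Bhmt2 rose by 0.33 and Dmgdh by 0.29 on the log2 scale.

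Some of these genes share sequence with each other or with copies elsewhere. Bhmt and Bhmt2 hold 3 identical runs of 59, 37 and 34 bases in their coding sequences. Of the 31-base stretches of Bhmt transcripts, 0.7% stand in Bhmt2. In the other direction, 1.66% of the stretches of Bhmt2 stand in Bhmt, whose mean value was 2986% of that of Bhmt2. Dmgdh shares no 31-base stretch with Bhmt or Bhmt2. The gene most alike to Bhmt in the whole table was Gm5096 (r = 0.971, mean 54.6 normalised CPM), a predicted gene whose transcripts hold 27.1% of the stretches of Bhmt, and the pseudogene Bhmt-ps1 holds 15.6% (r = 0.883, mean 2.82). Ahcy likewise shares 68.7% of its stretches with Gm4737 (mean 8.03) and 35.3% with Gm9826 (mean 12.5). How reads were divided between Bhmt and Bhmt2, or with the copies elsewhere, was not tested. The part of shared reads in the r of Bhmt with Bhmt2 was not tested either. Of the copies elsewhere Gm5096 was the highest, at 0.821% of the mean of Bhmt.

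Mat1a went with Cth (r = 0.784, permutation p = 1e-05, rho = 0.80, permutation p = 1e-05, adjusted p = 2.35e-09) and with Bhmt (r = 0.745, permutation p = 1e-05, rho = 0.756, permutation p = 1e-05, adjusted p = 2.52e-08). The r of Mat1a with Cth was 0.860 and 0.620 within the sets, and that with Bhmt 0.829 and 0.529. Mat1a with Dmgdh (r = 0.394), Dmgdh with Cth (r = 0.305) and Ahcy with Sardh (r = 0.402) missed the call in 1 or both fits.

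**Figure D4:**
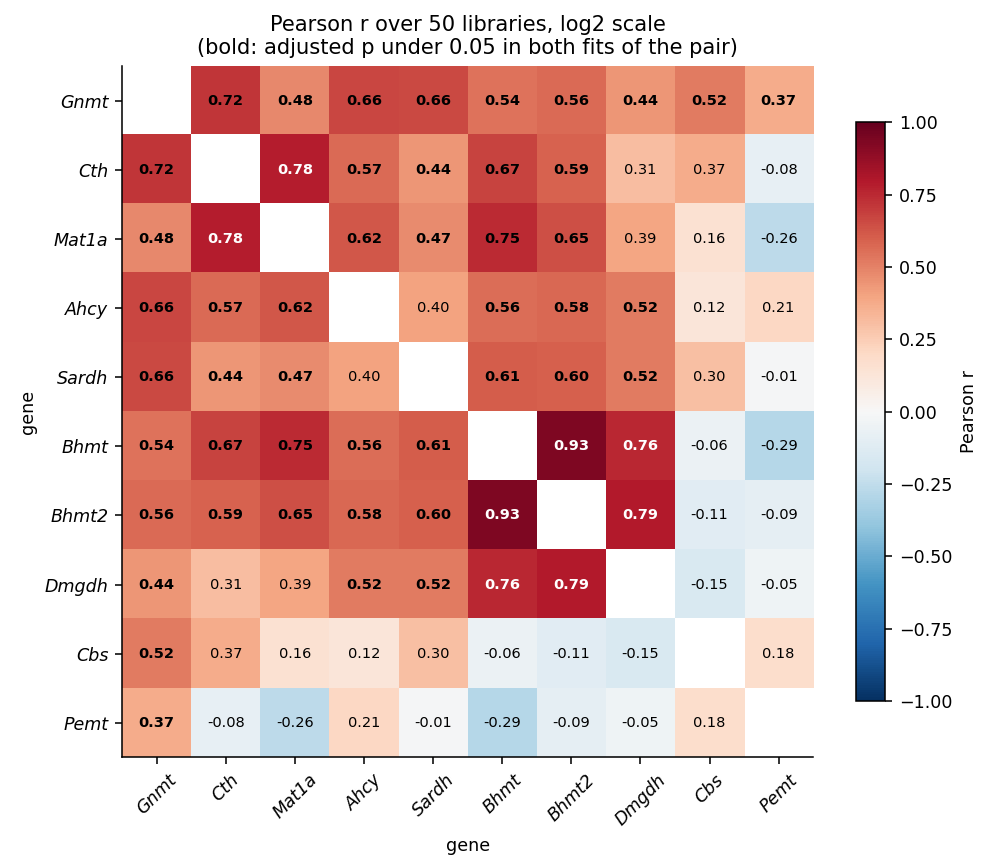
Pearson r of every pair of the 10 genes over 50 libraries on the log2 scale, from -1 (blue) to 1 (red), in bold where both fits of the pair had an adjusted p under 0.05. Bhmt, Bhmt2 and Dmgdh form the darkest block (0.76 to 0.93), and the rows of Cbs and Pemt are mostly pale and bold only at Gnmt.

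The other genes of one-carbon metabolism were counted by list. With Gnmt, 10 of 20 folate genes tested rose and 0 fell, 6 of 12 genes of sulfur and glutathione metabolism rose and 1 fell, 3 of 15 other methyltransferases rose and 1 fell, 3 of 12 genes of choline oxidation and supply rose, 2 of 10 other methionine cycle genes rose and 2 fell, and 1 of 13 genes of methionine salvage and polyamines rose and 1 fell. Over the 6 lists 30 of 82 genes were called (36.6%), 25 rising and 5 falling. Of all genes tested 25.4% were called, 12.8% rising and 12.7% falling. The median r was 0.312 for the folate list and 0.399 for the sulfur list, beside 0.545 for the 9 members and 0.004 over all genes. A median r near that of the members was not particular to them. Of 16 genes of the periportal end of the liver lobule, 11 rose with Gnmt and 0 fell (median r 0.533). At the pericentral end 5 of 15 genes fell and 0 rose. Of male-type liver genes 10 of 17 fell and 0 rose, and of female-type genes 3 of 14 rose and 0 fell. Aldh1l1, which oxidises formyl-folate and lies on chromosome 6, rose with Gnmt (r = 0.756, adjusted p = 2.24e-07, mean 777.3 normalised CPM). Nnmt, which methylates nicotinamide with S-adenosylmethionine, rose too (r = 0.703, adjusted p = 2.95e-06). Mtr, the folate-dependent homocysteine methyltransferase, fell (r = -0.596, adjusted p = 0.000208, mean 5.51), as did Ahcyl2, a relative of Ahcy (r = -0.433, adjusted p = 0.0109). Of 15 regulators tested, 1 rose and 2 fell with Gnmt, a share no higher than the 25.4% of all genes. Of these, Ppara, the fatty acid receptor of fasted liver, fell most clearly (r = -0.662, adjusted p = 2.11e-05), followed by Foxa1 (r = -0.444, adjusted p = 0.00915).

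With animal number, 4 of 20 folate genes rose, 3 of 10 other methionine cycle genes rose and 1 fell, 3 of 15 other methyltransferases rose, 2 of 12 sulfur genes rose and 3 fell, 1 of 13 salvage genes fell and 0 of 12 choline genes were called. Over the 6 lists 17 of 82 genes were called (20.7%, beside the 14.2% of all genes). The median r was -0.002 for the folate list and -0.020 for the sulfur list, beside 0.358 for the members and -0.003 over all genes. As3mt, which methylates arsenic, rose by 0.35 per 100 numbers (adjusted p = 0.00053) and Mpst by 0.21 (adjusted p = 0.00786). Amd1, which turns S-adenosylmethionine towards polyamines, changed by -0.31 (adjusted p = 0.00169), and Csad, a taurine enzyme, by -0.52 (adjusted p = 0.00178). Between the library sets 12 of the 82 listed genes were called, 14.6% beside the 13.5% of all genes, among them Gclm, higher by 0.20 in the second set (adjusted p = 0.00304), and Ftcd, at -0.17 (adjusted p = 0.00597).

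Finally the members were set beside 3 scores of liver state, each computed from listed genes of the same libraries with the members and the genes of chromosomes 4 and 6 left out. The zonation score, 15 periportal minus 15 pericentral genes, stands for the 2 ends of the liver lobule. Its periportal genes include Ass1, Asl and Etnppl, named above among the genes most alike to Gnmt, Ahcy and Cbs. The relations of these members to the score and to those genes are thus not separate results. With this score 4 of 10 members rose and 0 fell, where 12.6% of all genes were related to it, 6.2% rising and 6.43% falling. They were Cth (r = 0.658, permutation p = 1e-05, rho = 0.628, permutation p = 1e-05, limma adjusted p = 1.28e-05), Gnmt (r = 0.618, permutation p = 1e-05, rho = 0.560, permutation p = 5e-05, limma adjusted p = 0.000113), Mat1a (r = 0.604, permutation p = 2e-05, rho = 0.589, permutation p = 3e-05, limma adjusted p = 0.000141) and Cbs (r = 0.521, permutation p = 0.00015, rho = 0.347, permutation p = 0.0134, limma adjusted p = 0.00333). Gnmt tended to be higher where periportal genes stood higher against pericentral genes, with r = 0.682 and 0.478 within the sets and 0.476 once the 2 most extreme scores were left out. Within the sets r was 0.682 and 0.585 for Cth, 0.651 and 0.489 for Mat1a and 0.550 and 0.535 for Cbs. Without the 2 farthest libraries it was 0.579, 0.573 and 0.428. Bhmt (r = 0.259, adjusted p = 0.211), Bhmt2 (r = 0.159, adjusted p = 0.497) and Dmgdh (r = -0.097, adjusted p = 0.707) were not called. With plain CPM 1791 genes rose and 335 fell with the score, against 709 and 735, and 6 members rose, Ahcy and Sardh in addition. In the folate list Mthfd1l rose (r = 0.774, adjusted p = 5.99e-09), and Folr2 fell (r = -0.599, adjusted p = 0.000177).

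The fasting score, over 18 genes that rise in fasted liver, was chosen because the mice had been fasted overnight. Pck1, Sds and Tat are in this score and in the zonation score, so the members' relations to the fasting and zonation scores are not fully separate. With the fasting score 0 of 10 members passed in limma (1 of 10 at an unadjusted p under 0.05), where 1.92% of all genes were related to it, 1.21% rising and 0.717% falling. Mat1a came closest (r = 0.436, permutation p = 0.00162, rho = 0.416, permutation p = 0.00281, limma adjusted p = 0.0585) and passed with plain CPM (r = 0.503). Gnmt had r = -0.060 (permutation p = 0.679, rho = -0.121, permutation p = 0.401, limma adjusted p = 0.902). With plain CPM 213 genes rose and 57 fell with this score, against 138 and 82.

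With the sex-type score 0 of 10 members rose and 3 fell, where 21.2% of all genes were related to it, 10.7% rising and 10.4% falling. All mice were male by the deposited labels, and their sex was not tested here. The score orders livers by how strongly they express male-type over female-type genes, and no measured state of the mice stands beside it. Mat1a fell with it (r = -0.680, permutation p = 1e-05, rho = -0.641, permutation p = 1e-05, limma adjusted p = 2.05e-06), as did Cth (r = -0.607, permutation p = 1e-05, rho = -0.617, permutation p = 1e-05, limma adjusted p = 5.7e-05) and Bhmt (r = -0.414, permutation p = 0.00252, rho = -0.425, permutation p = 0.00218, limma adjusted p = 0.0143). With the 2 most extreme scores left out, r became -0.632, -0.578 and -0.371. Gnmt had r = -0.348 (limma adjusted p = 0.0557). With plain CPM 543 genes rose and 2629 fell with the score, against 1229 and 1193, and 7 members fell, adding Gnmt, Ahcy, Sardh and Bhmt2.

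The sex-type and zonation scores were themselves related over the libraries (r = -0.666, permutation p = 1e-05, rho = -0.619, permutation p = 1e-05, r = -0.753 and -0.483 within the sets, and -0.639 without the 2 farthest libraries), so the members' relations to them are not separate results. Within libraries 1 to 30, r with the sex-type score was -0.759 for Mat1a, -0.751 for Cth, -0.604 for Bhmt and -0.540 for Gnmt. Within libraries 31 to 59 it was -0.522, -0.286, -0.037 and 0.035. A test of this difference between sets called 0 of 11436 genes (limma interaction term, 710 at an unadjusted p under 0.05), and the adjusted p of the members was at least 0.798. At an unadjusted p under 0.05 in this fit stood 7 of the 10 members (Gnmt, Mat1a, Bhmt, Bhmt2, Sardh, Dmgdh and Cth, p between 0.0232 and 0.0421), against 6.21% of all genes. For all 10 members the slope was higher in the second set than in the first. Most members vary together, so neither count rests on separate results. In the same fit for the zonation score, 2 of 10 members had such a p, against 4.47% of all genes. For the fasting score it was 0 of 10, against 10.26%. Of the markers of other cells, 7 of 10 stellate cell markers fell with the sex-type score, 6 of 10 endothelial markers fell and 1 rose, 4 of 5 red cell markers fell and 1 rose, 2 of 10 Kupffer cell and leukocyte markers fell and 1 of 5 biliary markers fell. With the zonation score 4 of 10 stellate cell markers rose, 3 of 10 endothelial markers rose and 1 fell, 2 of 10 Kupffer cell and leukocyte markers rose, 1 of 5 red cell markers fell, and 1 of 5 biliary markers rose and 1 fell. Their part in the members' relations to both scores was not tested.

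**Figure D5:**
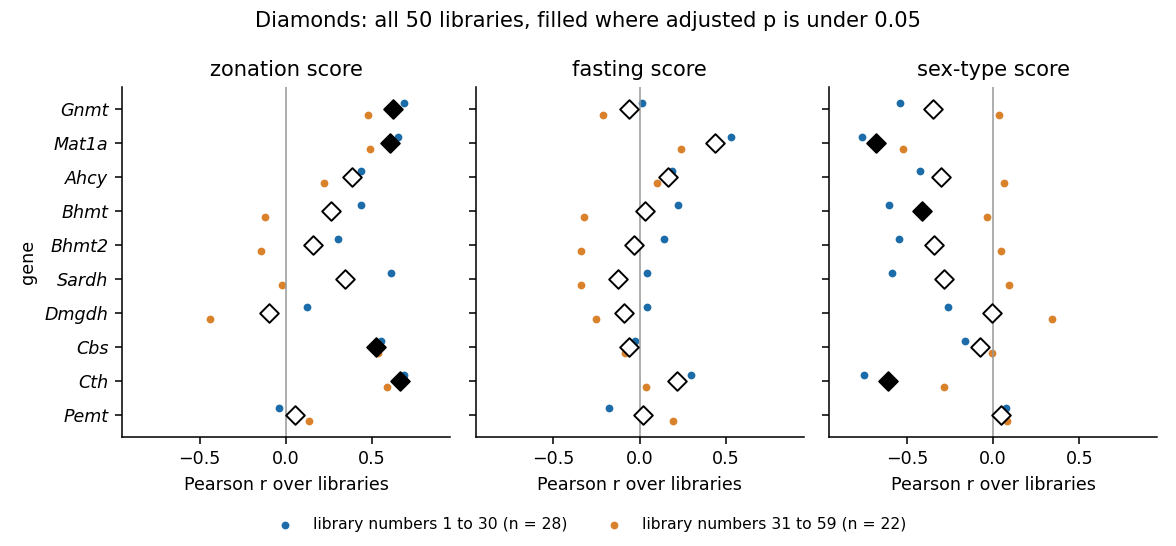
Pearson r of each gene with the zonation, fasting and sex-type scores. Diamonds stand for all 50 libraries, filled where the adjusted p was under 0.05, and small points for the 2 library sets. Filled diamonds appear for Gnmt, Mat1a, Cbs and Cth with zonation and for Mat1a, Bhmt and Cth with the sex-type score, and none appears with fasting.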

How the data were processed

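Stranded poly(A)-selected RNA libraries of mouse liver were sequenced, and 50 libraries with 48 animal numbers are in the table. Per the labels and the study's methods, the authors trimmed the reads (Trim Galore in the labels, Trimmomatic in the methods), ran HISAT2 against GRCm38.p5, used HTSeq 0.11.1 for counts per gene, removed genes with low counts and normalised with edgeR. The deposited signal is CPM on a library size scaled between libraries. Dividing each library by the value of 1 read gave whole reads for 100% of values within 0.01 of a read. Read numbers cover counting error only.

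Each comparison was fitted over 11436 genes whose mean value reached 1, on log2(value + 0.5), with limma 3.58.1 in R 4.3.3 (2-sided), calling a gene at a Benjamini-Hochberg adjusted p under 0.05. On this scale the changes of low genes are understated. edgeR 4.0.16 on the recovered reads was an alternative. Correlations carry permutation tests with 100000 resamples. Scripts were tested on simulated data. Gene positions come from GENCODE M21 and promoters from RefSeq. Other steps ran in Python 3.11.15 (scipy 1.17.1, pandas 2.3.3, numpy 2.4.6) and plots in matplotlib 3.10.9. Scores are mean standardised log2 values of a gene list.

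The 10 members and all lists were chosen with earlier results of these data known. Named genes were the members, the 5 highest and 5 lowest r for Gnmt, the highest r for each other member, and at most 2 listed genes per direction and comparison by adjusted p. The libraries are separate by title, but 2 animal numbers stand on 2 libraries each (4 libraries), and nothing at hand says whether these are the same mouse, so they were kept as separate libraries and left out as an alternative. Other alternatives were the pseudocount, the filter, plain CPM, single libraries left out, and covariates. The table holds 1 column more than the study's methods count, all 50 were kept, and genotypes were not used here.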

Additional observations from a re-analysis of the deposited data

How the results depend on the processing

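Most calls kept their side of the threshold and none reversed. Leaving out 1 library at a time, an alternative chosen after seeing the data, gave between 1279 and 2440 genes for the library sets (1542 with all libraries, the highest without library 44) and between 100 and 265 for the fasting score (220 with all, 100 without library 31 and 56.8% of the 220 without library 12). The members called then ranged from 0 to 1 for the fasting score, the 1 being Mat1a in 8 of the 50 fits, from 3 to 5 for the sex-type score, from 4 to 6 for animal number, from 4 to 5 for zonation and from 8 to 9 for Gnmt. With counted reads as a covariate 889 genes differed between the sets. With the sex-type score as a covariate, 415 genes and 3 members rose or fell with animal number, against 1626 and 5. With 5 principal components as covariates, 351 genes and 4 members were related to Gnmt, against 2907 and 9. With the fasting score 1 member passed under pseudocount 2, a mean of at least 5 or plain CPM, against 0, and with the sex-type score 7 members passed under plain CPM, against 3. The cause was not tested.

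The relation of Cth to animal number was lost without library 1, 4, 9, 20, 22, 24, 25, 28, 29, 30, 31, 32, 33, 35, 36 or 59 (adjusted p between 0.0514 and 0.0845), with plain CPM, with edgeR, without the 4 libraries that share an animal number and with the library set or the sex-type score as a covariate (that of Ahcy was lost with the last alone), and that of Dmgdh was gained without library 3, 31 or 57 (adjusted p between 0.0335 and 0.0452) and with the library set as a covariate. Single libraries also brought Ahcy under the threshold for zonation (9 libraries), and Gnmt (9) and Bhmt2 (4) for the sex-type score. The relation of Pemt to Gnmt was lost in 5 single-library fits (adjusted p between 0.053 and 0.192), on ranks, with counted reads as a covariate and without the 2 most extreme values of Gnmt. The levels of the members moved by less than 1 SD under the alternatives to the mean, the scaling and library 24. Depth limits little here, since counting error was at most 2.99% of the variance of any member. No paired analysis was possible because the labels give 1 group.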

Other observations

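Libraries that stood at an extreme for 1 member often did so for others. Library 28 was among the 5 highest for 6 of the 10 members, and libraries 22 and 59 for 5 each. Libraries 9, 11, 16 and 33 were each among the 5 lowest for 5 members. These libraries were picked after their values were seen. The animal numbers of libraries 22, 28 and 59 were all higher than those of libraries 9, 11, 16 and 33. Members that rose with animal number, such as Bhmt and Mat1a, were among those used to pick these libraries, so this order is not a separate result. It also depends on the cut at 5 members. Libraries 20 and 44 were each among the 5 highest for 4 members. Library 20 kept the order, but library 44 had a lower animal number than library 16.

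The libraries that share an animal number did not stand at the top of all pairs in likeness (r of centred log2 values 0.107 for libraries 8 and 10, rank 320 of 1225 pairs, and -0.118 for libraries 22 and 55, rank 830). Their Bhmt values, picked after they were seen, were close, at 4452 and 4639 in libraries 8 and 10 and at 9018 and 8974 in libraries 22 and 55, within a range of 1956 to 13659 over all libraries. Other members were not all as close. Mat1a was 5687 and 7453 in the first pair and 10413 and 8365 in the second, beside an SD of 1591 over all libraries. Gnmt was 1246 and 1205 in the first pair, but 2154 and 1554 in the second. With 2 pairs, no test was run.

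The following regulators of transcription were named after their values were seen. Nr0b2, a repressor of bile acid synthesis, changed by -0.60 per 100 animal numbers (limma adjusted p = 0.027). Esr1, the oestrogen receptor, rose with the zonation score (r = 0.485, limma adjusted p = 0.00505) and fell with the sex-type score (r = -0.620, adjusted p = 3.03e-05). Nr3c1, the glucocorticoid receptor, was higher in the second library set by 0.26 on the log2 scale (limma adjusted p = 0.00127) and fell with the fasting score (r = -0.468, adjusted p = 0.0375).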
